A study of Mus musculus with 2 samples.

Results

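Myeloid-derived suppressor cells (MDSCs) restrain T cells through a small set of effector and checkpoint genes, and 9 of these were examined in granulocyte-monocyte progenitors (GMPs), a BM progenitor stage from which MDSCs can arise. They were chosen by symbol: Arg1, Arg2, Nos2, Cd274, Pdcd1lg2, Tgfb1, Vegfa, Cd84 and Il10. All 9 are among the 24421 gene symbols of the deposited values. RNA-seq of total RNA covered 1 library from GMPs of female non-tumor-bearing mice (NTB-GMP) and 1 library from GMPs of female mice with orthotopically implanted 4T1 cells, a mouse mammary carcinoma line (4T1-GMP). The cells were purified by flow cytometry from BM, and the mice of both groups were F1 animals with a mixed H-2b/d background, semi-syngeneic to the tumor. The study's methods describe young adult mice for all experiments, and GMPs sorted from lineage-depleted BM with antibodies to CD150, CD16/32, Sca-1 and c-Kit, without naming these libraries. The number of mice per library and the time after implantation are not given in the sources used here. With no replicates, the comparison asks how these libraries differ, and no test of the condition is possible. Tumor, mouse and library preparation cannot be told apart. In bulk RNA, fewer cells that express a gene and less RNA per cell cannot be told apart either.

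MDSCs deplete arginine through arginase and make nitric oxide from it through inducible nitric oxide synthase, and both starve or damage nearby T cells. They also carry ligands of the receptor PD-1, which dampens activated T cells, and they secrete TGF-β1 and IL-10, which are suppressive, and VEGF-A, which promotes vessel growth and hinders dendritic cell maturation. These products are best known from MDSCs and macrophages in tumors and spleen, whereas GMPs are earlier cells that are still dividing.

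Values are RPKM, reads scaled to gene length in kilobases and to library size, so levels of different genes can be compared per length. Whole reads were recovered from them, as the smallest whole numbers that fit both values of a gene. Read counts are thus lower bounds, and an interval from too low a count is too wide. The authors' library sizes, recovered with them, were 10180365 reads for NTB-GMP and 30016263 for 4T1-GMP, a depth 2.95 times as high. Intervals are 95% intervals of the read counts, exact Poisson for a level and Clopper-Pearson for a ratio. They cover counting error only, since PCR reads without molecular identifiers are not independent molecules. A gene was taken as detected at 3 reads. All 10 GMP markers examined were detected in both libraries, among them Kit, Mpo, Elane and Ms4a3, but their levels differed. Kit, Cd34 and Fcgr3 were lower in 4T1-GMP, with 78.5, 154 and 53.1 RPKM in NTB-GMP against 49.1, 59.4 and 28.6 RPKM. The other 7 were higher in 4T1-GMP. Ms4a3, Prtn3 and Ctsg were at least 2-fold higher, with 479, 1399 and 1388 RPKM in NTB-GMP against 1220, 3311 and 2998 RPKM. Reads of Rn45s, the ribosomal RNA precursor, took 17% of NTB-GMP and 6.98% of 4T1-GMP, and leaving them out would shift every log2 ratio by -0.16.

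Of the 9 genes, 4 were detected in NTB-GMP and 7 in 4T1-GMP. Over all symbols, 50.5% were detected in NTB-GMP and 52.7% in 4T1-GMP. Tgfb1, Cd84, Vegfa and Cd274 had reads in both libraries. Arg2, Nos2 and Pdcd1lg2 had 0 reads in NTB-GMP and were detected in 4T1-GMP. Arg1 and Il10 had 0 reads in both, a state shared by 39.3% of all symbols. The 8 housekeeping genes examined were above 0 in both libraries, with at least 1184 reads each.

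**Figure D1:**
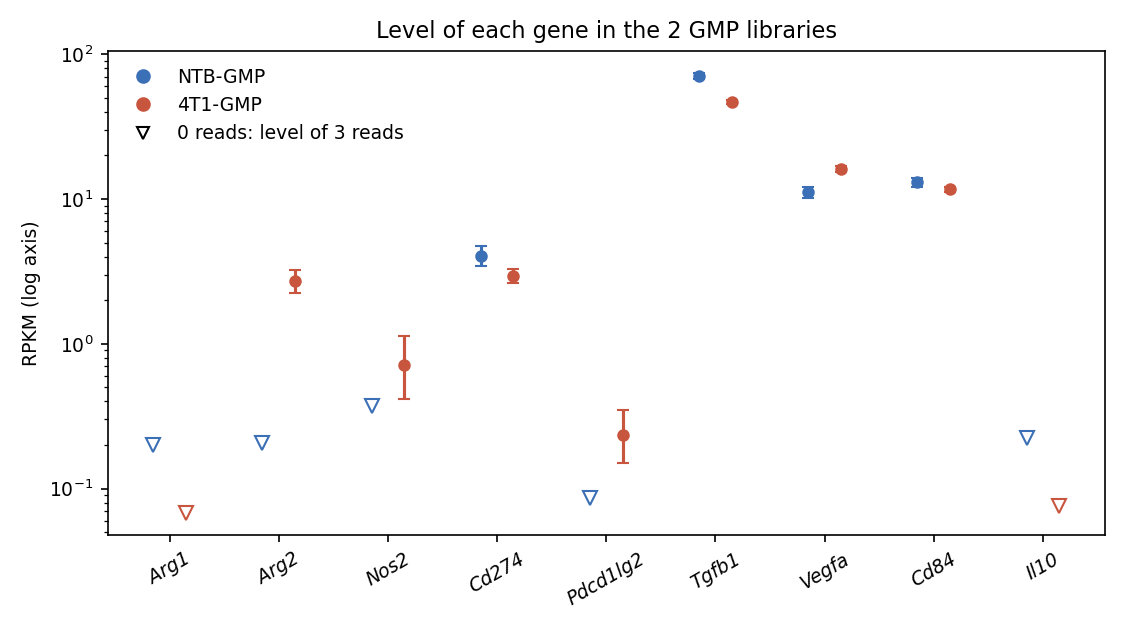
RPKM of the 9 genes in NTB-GMP (blue) and 4T1-GMP (red), on a log axis, with exact Poisson 95% intervals of the reads. Open triangles mark a gene with 0 reads and stand at the level that 3 reads would give. Arg2, Nos2 and Pdcd1lg2 have a measured value in 4T1-GMP alone, and Arg1 and Il10 in neither library.

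The checkpoint ligands illustrate the contrast between detected and undetected genes, since they are neighbors in the genome. Cd274, which encodes PD-L1, lies on chromosome 19 from 29367455 to 29388095, and Pdcd1lg2, which encodes PD-L2, follows on the same strand from 29410919 to 29471161 (GENCODE M21, GRCm38). The 250 bases before each RefSeq start are shown because one gene of the pair was detected in both libraries and the other in 4T1-GMP alone. They come from RefSeq on the plus strand of GRCm38.p6, at chr19:29367188-29367437 for Cd274 and chr19:29410669-29410918 for Pdcd1lg2. Capitals mark the single motif match found in this pair of windows.
Cd274: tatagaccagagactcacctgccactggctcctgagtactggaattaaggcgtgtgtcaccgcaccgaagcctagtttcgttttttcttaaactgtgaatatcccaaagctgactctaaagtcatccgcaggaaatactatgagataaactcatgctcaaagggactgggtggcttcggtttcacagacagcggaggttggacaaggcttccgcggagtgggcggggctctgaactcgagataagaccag
Pdcd1lg2: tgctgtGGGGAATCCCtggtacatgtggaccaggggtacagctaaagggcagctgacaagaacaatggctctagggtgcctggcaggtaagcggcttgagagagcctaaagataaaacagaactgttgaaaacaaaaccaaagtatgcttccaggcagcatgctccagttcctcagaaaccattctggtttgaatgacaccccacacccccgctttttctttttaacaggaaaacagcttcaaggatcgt
The motifs searched on both strands were GAAA followed after 2 bases of any kind by GAAA for interferon regulatory factors, TTCNNNGAA for STATs, GGG followed after 5 bases of any kind by CC for NF-κB, TTGCNNAA for C/EBP factors and the TATA box TATAAA. The match in the Pdcd1lg2 window was to the NF-κB motif, which is present in 45.8% of all 32851 windows of this length, and the Cd274 window had none of these letters. The interferon regulatory factor motif was in 2.98% of all windows, the STAT motif in 7.02%, the C/EBP motif in 9.56% and the TATA box in 12.4%. A match describes the letters and is not a binding site. RefSeq windows were at hand for 5 of the 9 genes, and Arg1, Arg2, Nos2 and Il10 had none. Of the windows not shown, that of Cd84 had 1 match and that of Tgfb1 had 7, all to the NF-κB motif. The upstream window of Vegfa had 2 matches, to the interferon regulatory factor motif and the NF-κB motif, and its other window had 0.

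Arginase converts arginine to ornithine and urea. Arg1 encodes the cytosolic enzyme, the one most often measured in MDSCs, and lies on chromosome 10 from 24915221 to 24927484. It had 0 reads in either library. Over its longest annotated transcript, the detection limit of 3 reads would correspond to 0.200 RPKM in NTB-GMP and 0.0677 in 4T1-GMP. Arg2 encodes the mitochondrial enzyme and lies on chromosome 12 from 79130777 to 79156301. Arg2 had 0 reads in NTB-GMP and 115 reads, or 2.70 RPKM, in 4T1-GMP (interval 2.23 to 3.25). At the depth of NTB-GMP, that level would have given 39.0 reads. Against the level of 3 reads in NTB-GMP, Arg2 was at least 13-fold higher in 4T1-GMP. The arginase detected in these libraries was thus the mitochondrial form, and in 4T1-GMP alone.

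The pattern of Arg2 was looked for in other genes with a limit of 100 reads, which was not planned and lies just under the count of Arg2. Of the 9700 symbols with at least 100 reads in 4T1-GMP, 10 had 0 reads in NTB-GMP (0.103%), and Arg2 was the ninth by reads. The others were Pla2g7 (574 reads in 4T1-GMP), BC100530, Stfa2, Cd101, Gm5483, Stfa2l1, Degs2, Gpr84 and Mmp25. Cd101 is a surface protein of mature neutrophils, with 235 reads in 4T1-GMP, and Mmp25 is a metalloproteinase of neutrophils, with 104 reads. These genes were named after their values were seen, and their read numbers, like all those recovered, are lower bounds. A gene with 0 reads in NTB-GMP was fitted from its 4T1-GMP value alone, so its count can fall further below the true one. The share of 0.103% can therefore be too low. All 12 mature neutrophil markers examined were also higher in 4T1-GMP, and their summed level was 523 RPKM in NTB-GMP against 4075 RPKM in 4T1-GMP. In NTB-GMP, where Arg2 had 0 reads, these markers ranged from 4 reads of Ly6g (119 in 4T1-GMP) and 13 reads of Mmp8 (1035 in 4T1-GMP) to 1009 reads of S100a9 (31055 in 4T1-GMP). The part of mature neutrophils in the reads of Arg2 was not tested. The 3′ end of Arg2 shares 285 exon bases with Vti1b, a membrane trafficking gene on the other strand. Vti1b had 247 reads in NTB-GMP, where Arg2 had 0, and 911 reads in 4T1-GMP, or 18.9 and 23.7 RPKM. Whether the counting used strand is not given in the sources used here.

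Nos2 encodes inducible nitric oxide synthase and lies on chromosome 11 from 78920787 to 78960254. It had 0 reads in NTB-GMP and at least 17 reads in 4T1-GMP, at 0.710 RPKM (interval 0.413 to 1.14). The whole reads fit a gene length of 798 bases or a multiple of it. With the multiple nearest to the longest annotated transcript, 3990 bases, the reads would be 85. Against the level of 3 reads in NTB-GMP, Nos2 was at least 1.92-fold higher in 4T1-GMP with the smaller count, and at least 9.61-fold with the larger. In either case its level per length in 4T1-GMP was below that of Arg2, which was 3.81 times as abundant. The other nitric oxide synthases were near 0: Nos1 had 0 and 4 reads, and Nos3 had 4 and 2 reads, in NTB-GMP and 4T1-GMP, respectively.

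Genes of arginine import and of the surrounding enzymes were compared next. Of 17 genes of arginine and nitric oxide metabolism, 9 reached a mean of 1 RPKM, the minimum for a ratio. None of these 9 was at least 2-fold higher in 4T1-GMP and 1 was at least 2-fold lower, where 3.25% of all 10378 genes at this level were higher and 4.92% lower. Their median log2 ratio was 0.28, against 0.05 for all genes; ratios are 4T1-GMP over NTB-GMP after 0.1 RPKM was added to each value, so the log2 change of low genes is understated. Slc7a1, the widely used arginine transporter, had 16.0 RPKM in NTB-GMP against 19.5 RPKM in 4T1-GMP. Slc7a2, the transporter that macrophages induce with Nos2, was much lower, at 0.213 and 0.284 RPKM. Ass1, which rebuilds arginine from citrulline, had 0.542 and 0.368 RPKM. The gene that was lower was Ddah2, which clears an inhibitor of nitric oxide synthase, with 17 reads in NTB-GMP and 11 in 4T1-GMP (log2 ratio -2.00, interval -3.43 to -1.01). Qdpr was at -0.08 and Asl at 0.12. The highest ratios were those of Gatm, the first enzyme of creatine synthesis (0.76), Odc1, which commits ornithine to polyamines (0.61), and Oat, which converts ornithine toward proline (0.47). Odc1, at 83.2 RPKM in NTB-GMP against 127 RPKM in 4T1-GMP, was thus far more abundant than either arginase.

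Of the PD-1 ligands, Cd274 was the one with reads in both libraries. It had 4.05 RPKM in NTB-GMP (150 reads, interval 3.43 to 4.75) and 2.94 RPKM in 4T1-GMP (321 reads, interval 2.63 to 3.28). Its level in 4T1-GMP was 0.726 times that in NTB-GMP, a log2 ratio of -0.45 (interval -0.75 to -0.17). The difference was larger than counting error and smaller than 2-fold. Cd274 shares 511 exon bases with AC119228.1, an antisense gene on the other strand that has no value in these libraries. Since the use of strand in the counting is not given, the part of its reads in those of Cd274 was not tested. Pdcd1lg2 had 0 reads in NTB-GMP against 24 reads in 4T1-GMP, at 0.234 RPKM (interval 0.150 to 0.348). That level would have given 8.14 reads at the depth of NTB-GMP. Against the level of 3 reads in NTB-GMP, Pdcd1lg2 was at least 2.71-fold higher in 4T1-GMP. In 4T1-GMP, Cd274 was 12.6 times as abundant per length as Pdcd1lg2. The neighboring ligands thus differed in direction between these libraries, with Cd274 lower and Pdcd1lg2 higher in 4T1-GMP.

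Pdcd1, which encodes PD-1, had 0 reads in both libraries. It belongs to a list of 25 genes of the PD-1 axis and related checkpoints, of which 24 were found. Of these, 12 reached the mean of 1 RPKM, with a median log2 ratio of 0.28. Of the 12, 1 was at least 2-fold higher in 4T1-GMP and 1 at least 2-fold lower. Over all tested genes, 3.25% were higher and 4.92% lower. Siglece, an inhibitory receptor for sialic acids, had 4 reads in NTB-GMP against 276 reads in 4T1-GMP, or 0.212 and 4.97 RPKM (log2 ratio 4.02, interval 3.18 to 6.43). Lag3, which encodes an inhibitory receptor of lymphocytes, had 1.42 RPKM in NTB-GMP against 0.632 RPKM in 4T1-GMP (a log2 ratio of -1.06, interval -1.91 to -0.42). The checkpoint genes with the most RNA per length differed by less than 1.5-fold. Cd47, the "don't eat me" signal, had 145 RPKM in NTB-GMP against 148 RPKM in 4T1-GMP (log2 ratio 0.03), and Lgals9, which encodes galectin-9, had 76.7 and 64.9 RPKM (-0.24). Vsir, which encodes VISTA and is listed under its older symbol 4632428N05Rik, was at 0.57, and Cd200r1, the receptor of CD200, was at 0.53.

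Tgfb1 was the most abundant of the 9 genes per length in both libraries. It encodes TGF-β1, which is secreted in a latent form, and lies on chromosome 7 from 25687002 to 25705077. Tgfb1 had 70.7 RPKM in NTB-GMP (1507 reads, interval 67.2 to 74.4) and 46.7 RPKM in 4T1-GMP (2933 reads, interval 45.0 to 48.4). The level in 4T1-GMP was 0.660 times that in NTB-GMP, a log2 ratio of -0.60 (interval -0.69 to -0.51). Among all tested genes, 11.3% had a lower log2 ratio. With ratios of at least 1.5-fold counted, Tgfb1 was the 1 gene of the 4 with reads in both libraries that was lower, and 0 of the 4 were higher, where 11.6% of all tested genes were lower, 9.8% higher and 21.4% either.

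The machinery around TGF-β1 was mostly present. Of its 23 pathway genes, 17 reached a mean of 1 RPKM. Their median log2 ratio was -0.22. None of the 17 was at least 2-fold higher in 4T1-GMP, against 3.25% of all tested genes. At least 2-fold lower were 3, against 4.92% of all tested genes. Those 3 were Thbs1, Ltbp3 and Tgfbr3. Thbs1, which encodes thrombospondin-1, an activator of latent TGF-β, had 86 reads in NTB-GMP against 3 reads in 4T1-GMP, or 8.74 and 0.103 RPKM (log2 ratio -5.44, interval -8.71 to -4.81). Ltbp3, which helps secrete and store latent TGF-β, had 4.09 and 1.23 RPKM (-1.66), and Tgfbr3, the coreceptor betaglycan, had 1.64 and 0.616 RPKM (-1.28). The signaling receptors differed little: Tgfbr1 had 673 reads in NTB-GMP against 1701 reads in 4T1-GMP (log2 ratio of the levels -0.22, interval -0.35 to -0.09), and Tgfbr2 had 7.12 and 6.80 RPKM (-0.07, interval -0.24 to 0.11). The highest ratios were those of Skil, a SMAD corepressor (0.57), Itgav, an integrin subunit that releases active TGF-β (0.45), and Smad7, an inhibitory SMAD (0.37). The other ligands were barely seen, with 2 and 1 reads for Tgfb2 and 0 and 0 for Tgfb3.

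Of the 4 genes with reads in both libraries, 1 was higher in 4T1-GMP, namely Vegfa, where 54.7% of all tested genes had a log2 ratio above 0. It encodes VEGF-A and lies on the minus strand of chromosome 17 from 46016993 to 46032369. Vegfa had 11.1 RPKM in NTB-GMP (473 reads, interval 10.2 to 12.2) and 16.1 RPKM in 4T1-GMP (2023 reads, interval 15.5 to 16.9). It was 1.45-fold higher, with a log2 ratio of 0.53 (interval 0.39 to 0.68), above that of 88.2% of all tested genes. Gene values pool the transcripts of Vegfa, so its isoforms were not compared.

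Among the other 17 genes of the VEGF and hypoxia pathway, 10 reached a mean of 1 RPKM, with a median log2 ratio of 0.14. Of the 10, 2 were at least 2-fold higher in 4T1-GMP and 0 at least 2-fold lower. Over all tested genes, 3.25% were higher and 4.92% lower. The 2 higher genes of the pathway encode VEGF receptors. Flt1, which encodes VEGF receptor 1, had 1.28 RPKM in NTB-GMP against 3.27 RPKM in 4T1-GMP (a log2 ratio of 1.29, interval 1.02 to 1.70). Nrp2, a coreceptor, had 0.617 and 2.55 RPKM (1.88, interval 1.63 to 2.49). Its relative Nrp1 went the other way, with 1.01 and 0.219 RPKM, below the mean of 1 RPKM, and Kdr, which encodes VEGF receptor 2, had 0 reads in both libraries. Hif1a, the oxygen-regulated transcription factor subunit that acts on Vegfa, had 24.7 RPKM in NTB-GMP against 42.9 RPKM in 4T1-GMP (0.79, interval 0.70 to 0.88). Arnt, its partner, was at -0.01 and Vhl, which marks it for degradation, at -0.04. Vegfb, a related ligand, had 143 and 262 reads (log2 ratio of the levels -0.68, interval -0.99 to -0.38).

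Cd84 encodes a self-binding receptor of the SLAM family that has been used as a surface marker of MDSCs. It lies on chromosome 1 from 171839697 to 171890718. Cd84 had 13.01 RPKM in NTB-GMP (828 reads, interval 12.1 to 13.9) and 11.7 RPKM in 4T1-GMP (2189 reads, interval 11.2 to 12.2). The log2 ratio of -0.16 (interval -0.27 to -0.04) was the smallest in size among the 4 genes with reads in both libraries. Cd84 was therefore already present in GMPs of mice without a tumor, at about the same level. Of 11 other SLAM genes found, 4 reached a mean of 1 RPKM. Past 2-fold in either direction were 0 of these 4, against 8.17% of all tested genes. The 4 were Cd48 (64.3 RPKM in NTB-GMP against 46.3 RPKM in 4T1-GMP, log2 ratio -0.47), Ly9 (-0.24), Cd244 (-0.25) and Sh2d1b1, an adaptor of these receptors (0.45, interval -0.32 to 1.37). The intervals of Cd244 and Sh2d1b1 included 0.

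Il10 encodes the suppressive cytokine IL-10 and lies on chromosome 1 from 131019845 to 131024974. It had 0 reads in either library. Over its longest annotated transcript, the detection limit of 3 reads would correspond to 0.225 RPKM in NTB-GMP and 0.0763 in 4T1-GMP. Its family members Il19, Il20 and Il24 were at 0 in both libraries as well. The receptor was transcribed. Il10ra, the chain specific to IL-10, had 1.74 RPKM in NTB-GMP against 0.849 RPKM in 4T1-GMP (a log2 ratio of -0.96, interval -1.52 to -0.55), and Il10rb, the shared chain, had 13.6 and 12.7 RPKM (-0.10, interval -0.31 to 0.11). Of 14 genes in the list of the IL-10 family, its signaling and related cytokines, 8 reached a mean of 1 RPKM. Of the 8, 2 were at least 2-fold higher in 4T1-GMP and 0 at least 2-fold lower. Over all tested genes, 3.25% were higher and 4.92% lower. Il6, also on the list, narrowly missed the minimum mean of 1 RPKM and was left out of these counts. Its level was 1.81 RPKM for NTB-GMP but 0.184 RPKM for 4T1-GMP, resting on 20 and 6 reads. The log2 ratio of Il6 was thus -2.75, and the count of 0 lower genes depends on this filter. Stat3, which carries the IL-10 signal, was at 0.42 and Jak1 at -0.14. The 2 higher genes of the list were Socs3, the feedback inhibitor induced by STAT3, and Il1b, an inflammatory cytokine. Socs3 had 0.216 RPKM in NTB-GMP against 7.19 RPKM in 4T1-GMP, from at least 1 and 98 reads (log2 ratio 4.53, interval 2.54 to 10.4). Il1b had 0.0740 and 12.8 RPKM, from at least 1 and 509 reads (6.21, interval 4.95 to 12.7).

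**Figure D2:**
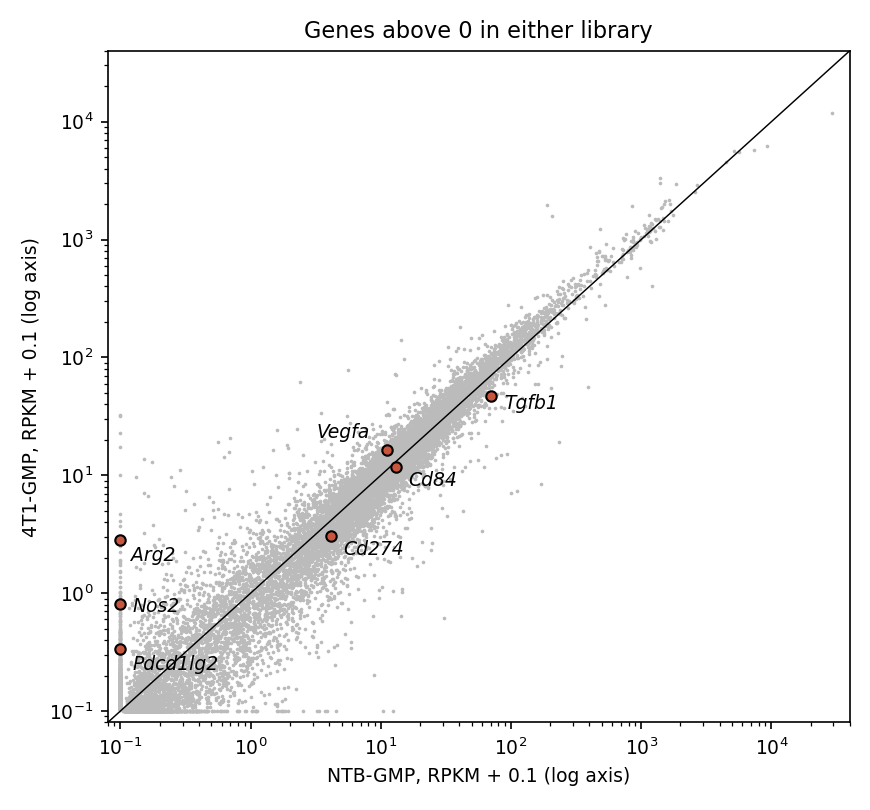
RPKM + 0.1 in NTB-GMP (x axis) and 4T1-GMP (y axis), both on log axes, for the genes above 0 in either library (gray), with the line of equal levels. Tgfb1, Vegfa, Cd84 and Cd274 (red) lie close to the line, while Arg2, Nos2 and Pdcd1lg2 stand at the left edge because they had 0 reads in NTB-GMP.

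Ordered by level per length, Tgfb1 came first in NTB-GMP, followed by Cd84, Vegfa and Cd274. Tgfb1 was 5.43 times as abundant there as Cd84 (interval of the ratio 4.99 to 5.92), Cd84 1.17 times as abundant as Vegfa (1.04 to 1.31) and Vegfa 2.75 times as abundant as Cd274 (2.28 to 3.32), so each step was larger than counting error. In 4T1-GMP, Tgfb1 again came first, and Vegfa, Cd84, Cd274, Arg2, Nos2 and Pdcd1lg2 followed. Vegfa was 1.38 times as abundant as Cd84 in 4T1-GMP (1.30 to 1.47), the reverse of their order in NTB-GMP. Cd274 was 1.09 times as abundant as Arg2 (0.876 to 1.36), a difference within counting error. Nos2 and Pdcd1lg2 were the lowest of the detected genes, and 25.2% and 18.1% of the genes above 0 in that library had a lower level, respectively, against 89.8% for Tgfb1.

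**Figure D3:**
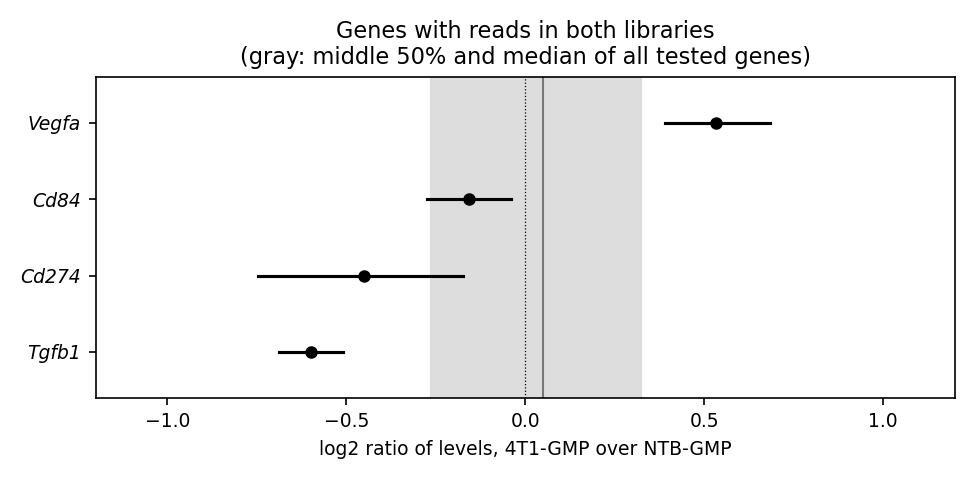
log2 ratio of 4T1-GMP over NTB-GMP (x axis) for the 4 genes with reads in both libraries. Points are ratios of RPKM + 0.1 and bars are Clopper-Pearson 95% intervals of the reads; the gray band is the middle 50% of all tested genes, from -0.26 to 0.32, and the gray line their median of 0.05. The point of Vegfa lies above the band, those of Tgfb1 and Cd274 below it, and that of Cd84 inside it.

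Taking the genes as a list, 5 of the 9 reached a mean of 1 RPKM. Of these 5, 1 was at least 2-fold higher in 4T1-GMP and 0 at least 2-fold lower. That 1 gene was Arg2, which reached the minimum through 4T1-GMP alone and so had to differ. The same holds for Siglece, Nrp2, Socs3 and Il1b among the pathway genes counted as higher, and, through NTB-GMP, for Ddah2, Lag3, Thbs1 and Tgfbr3 among those counted as lower, so these counts are descriptions. Over all tested genes, 3.25% were at least 2-fold higher, 4.92% lower and 8.17% past 2-fold in either direction. The median log2 ratio of the 5 was -0.16, also with Arg2 at its lower bound, and that of the 4 with reads in both libraries was -0.30. When Rn45s was not counted in the library sizes, 2.53% of all tested genes were at least 2-fold higher and 7.16% at least 2-fold lower, and each of the 4 genes kept its direction.

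Other products tied to MDSC suppression had the highest median ratio of the lists compared. Of 18 such genes, 11 reached a mean of 1 RPKM, with a median log2 ratio of 0.82. Of the 11, 5 were at least 2-fold higher in 4T1-GMP and 0 at least 2-fold lower. Over all tested genes, 3.25% were higher and 4.92% lower. S100a8 and S100a9, which encode the subunits of calprotectin and are also counted among the neutrophil markers, had 208 and 189 RPKM in NTB-GMP and 1594 and 1974 RPKM in 4T1-GMP (log2 ratios 2.94 and 3.38). Wfdc17 had 2.30 and 61.8 RPKM (4.69). Cybb, a subunit of the NADPH oxidase (2.27), and Entpd1, the ectoenzyme CD39 (1.08), were the others, named to complete the count. Some genes of this list had few or no reads. Ido1, which breaks down tryptophan, had 0 reads in NTB-GMP and 1 read in 4T1-GMP, Il4i1 had 0 in both, and Ptgs2, the inducible cyclooxygenase, had 3 and 7 reads. At the low end were Adam17, a sheddase (-0.71), Lgals1 (-0.23) and Lgals3 (-0.05), which encode galectins.

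Transcription factors known to act on these genes were also compared. Of 14, 12 reached a mean of 1 RPKM, with 1 at least 2-fold higher and 1 at least 2-fold lower in 4T1-GMP. Over all tested genes, 3.25% were higher and 4.92% lower. Irf8, a factor of monocyte and dendritic development that restrains MDSC output, had 32.0 RPKM in NTB-GMP against 4.45 RPKM in 4T1-GMP (a log2 ratio of -2.82, interval -3.00 to -2.68). Cebpb, which drives emergency granulopoiesis and acts on Arg1, had 5.76 and 11.9 RPKM (1.04, interval 0.72 to 1.39). Arg1 had 0 reads in both libraries, and its link to Cebpb was not tested. Spi1 was at 0.50, Bach1 at 0.22, Myc and Cebpa both at -0.36.

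**Figure D4:**
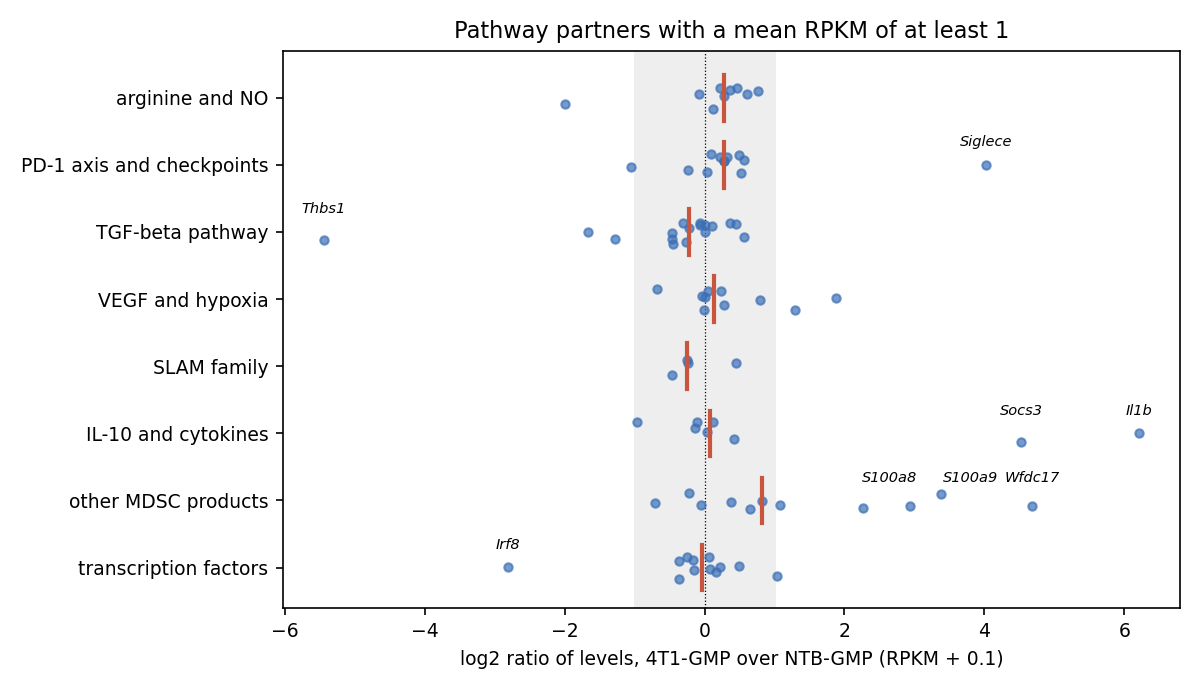
log2 ratio of 4T1-GMP over NTB-GMP on the log2(RPKM + 0.1) scale for the partners of each pathway with a mean RPKM of at least 1 (points, spread vertically for sight), with the median of each list (red bar) and the range within 2-fold (gray). Most partners lie within 2-fold; Siglece, Socs3, Il1b, Wfdc17, S100a8 and S100a9 lie far to the right, and Thbs1 and Irf8 far to the left.

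Macrophages, dendritic cells and carcinoma cells can also express Nos2, Cd274, Tgfb1 or Vegfa, so their markers were examined in the same libraries. Of 12 monocyte, macrophage and dendritic markers, 1 was higher in 4T1-GMP, the macrophage marker Mrc1. It had 0.443 RPKM in NTB-GMP against 0.733 RPKM in 4T1-GMP (24 and 117 reads). The summed level of the 12 was 140 RPKM in NTB-GMP against 36.8 RPKM in 4T1-GMP. Of 8 tumor and epithelial markers, 4 were at 0 in both libraries, among them Epcam and Krt14. Krt18 and Cdh1 were detected in both and lower in 4T1-GMP. Krt18 had 12.8 RPKM in NTB-GMP against 8.90 RPKM in 4T1-GMP, and Cdh1 had 5.36 and 1.04 RPKM. The summed level of the 8 was 33.3 RPKM in NTB-GMP against 107 RPKM in 4T1-GMP, of which Lcn2, also a neutrophil gene, had 15.1 and 97.0 RPKM. Of 9 lymphocyte markers found, 2 were detected in NTB-GMP and 3 in 4T1-GMP, with summed levels of 191 and 337 RPKM that came almost wholly from Nkg7 (190 and 337 RPKM); Cd3g was at 0 in both and Cd3e and Cd8a had 0 and 1 reads. The 10 erythroid and megakaryocyte markers summed to 20.9 and 6.48 RPKM, with 3 higher in 4T1-GMP. Mast cell, basophil and eosinophil markers were detected in full, 10 of 10 in both libraries, with summed levels of 1937 RPKM in NTB-GMP against 726 RPKM in 4T1-GMP. Another 6 surface markers were chosen as ones that a GMP gate may leave out. The antibodies named for the sort cover the products of Ly6a and Slamf1. The study's flow cytometry definition of GMPs also excludes those of Itga2b and Csf1r, and neither uses Flt3 or Procr. Itga2b had 12.8 and 4.43 RPKM, Csf1r 12.1 and 7.89 RPKM, and Flt3 12.6 and 2.34 RPKM, all lower in 4T1-GMP. The other 3 were higher on few reads, with 0 and 4 for Ly6a, 3 and 18 for Procr and 2 and 7 for Slamf1. The part of a different mix of sorted cells in the values of the 9 genes was not tested.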

How the data were processed

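RNA-seq libraries of GMPs were compared, 1 for NTB-GMP and 1 for 4T1-GMP. The authors deposited RPKM, 1 value per gene symbol, named for edgeR, without gene lengths. The submitters' processing notes name CASAVA 1.8.2, cutadapt 1.2.1, TopHat2 2.0.13, Picard 1.97, HTSeq 0.6.1, edgeR 3.12.1 and the build mm10. RPKM depend on the reads counted in the library size, so a dominant RNA moves all other values.

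Whole reads, gene lengths and library sizes were recovered from the full-precision RPKM for all 14833 symbols above 0. Reads and lengths are the smallest whole numbers that give both values, and so are lower bounds. The procedure was tested on simulated data. The 9 genes, lists and markers were chosen with earlier results of these data known. Named were the 9 genes and set direct partners. From each list, the 3 highest and 3 lowest log2 ratios at a mean RPKM of at least 1 were also named. Il6 was added because it lay just below that minimum. With 1 ratio per gene, no gene was named for a similar pattern. The pseudocount was 0.1. No p-value was computed, because each group had 1 library. Of the listed names absent from the files, 3 were matched through RefSeq synonyms (GRCm38.p6). Alternatives were other pseudocounts, filters, fold thresholds, detection limits, centring, quantile normalization and library sizes without Rn45s. Chosen after seeing the data were the list without Arg2 and the longer Nos2 length. Python 3.11.15, numpy 2.4.6, pandas 2.3.3 and scipy 1.17.1 were used.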

Additional observations from a re-analysis of the deposited data

How the results depend on the processing

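Detection of 4 genes in NTB-GMP and 7 in 4T1-GMP was the same under limits of 1 read and 10 reads. These limits could not change the count in NTB-GMP, where the 5 other genes had 0 reads. The 7 in 4T1-GMP also stayed at 3 reads with that library scaled to the depth of NTB-GMP. At that depth Pdcd1lg2 would have 8.14 reads and Nos2, with its smaller count, 5.77 reads, both below 10. At a limit of 1 RPKM, 4 were detected in NTB-GMP and 5 in 4T1-GMP, where Nos2 and Pdcd1lg2 fell below it. Of the 4 genes with reads in both libraries, each kept its direction under all 5 alternatives. Values beyond the interval of the reads were those of Tgfb1 (-0.76), Vegfa (0.37) and Cd84 (-0.32) with Rn45s not counted in the library sizes, which follows from the common shift, and of Tgfb1 (-0.81) after quantile normalization, where the cause was not tested. The bound of Nos2 moved from 1.92-fold to 9.61-fold with the longer gene length. The count of genes at least 2-fold higher moved from 1 to 3 without a filter, when Nos2 and Pdcd1lg2 enter, and to 0 at a mean RPKM of 5 or without Arg2; the count of lower genes moved from 0 to 1 at 1.5-fold. Without a filter the median log2 ratio was 0.53, which rests on the pseudocount for genes at 0.

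Counts for the partner lists moved as follows, higher before lower. For arginine and nitric oxide, 2 were higher at 1.5-fold and 0 lower at a mean RPKM of 5. For the checkpoint list, 2 were higher without a filter and 0 at a mean RPKM of 5, and the lower genes were 0 with a pseudocount of 1, 0 after quantile normalization, 4 without a filter and 0 at a mean RPKM of 5. For TGF-β, the lower genes were 0 at a mean RPKM of 5. For VEGF and hypoxia, 1 was higher with a pseudocount of 1 and 0 at a mean RPKM of 5, and 1 was lower without a filter or at 1.5-fold. For the SLAM family, 1 was higher and 2 lower without a filter. For the IL-10 list, 1 was higher at a mean RPKM of 5, and 2 were lower with Rn45s left out and 1 with a pseudocount of 0.01, centred ratios, no filter or 1.5-fold. For other MDSC products, 1 was lower at 1.5-fold. For the transcription factors, 0 were higher with a pseudocount of 1, with Rn45s left out or with centred ratios, since Cebpb lay near 2-fold, and 2 were lower without a filter. Depth limits Pdcd1lg2, Nos2 and Ddah2, which rest on few reads as recovered, where the counts are lower bounds. No paired analysis was possible because NTB-GMP and 4T1-GMP were 1 library each, which also leaves no replicate to omit.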
